A study of Mus musculus with 80 samples.

Results

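The 49 DNA repair genes described here were chosen by name for their known roles in repair, with earlier results of these data known. Each was read from the probe set whose only gene symbol was that gene, taking the probe set with the highest mean where a gene had several, and they were 49 of the 18820 genes that the arrays name in this way. They fell into 9 pathways, namely base excision glycosylases (7 genes), single-strand break processing and sealing (7), nucleotide excision repair (7), mismatch repair (4), homologous recombination (7), non-homologous end joining (5), the Fanconi anaemia pathway (5), translesion synthesis (3) and damage signalling (4). The hearts came from young adult male C57BL/6J mice, which were fed only in the dark phase. Sleep-deprived mice (SD) were gently handled to stay awake, starting at lights-on, for 3, 6, 9 or 12 h (n = 8, 9, 9 and 8), spontaneously sleeping mice (SS) were left undisturbed for the same 3, 6, 9 or 12 h (n = 9 each), and baseline mice (n = 10) were killed at lights-on. Each mouse gave 1 array of total heart RNA, so the spread below is between animals. The deprived animals were also handled. Sleep loss, loss of physical rest and handling cannot be told apart in the difference between SD and SS.

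DNA is damaged continuously by oxidation, hydrolysis, replication errors and breakage, and separate enzyme systems deal with each kind of lesion. Glycosylases cut out single damaged bases, and nucleotide excision repair removes bulky lesions along with a stretch of the strand. Mismatch repair corrects mispairs, while double-strand breaks are either rejoined directly at their ends or copied from the sister chromatid by homologous recombination. Adult cardiomyocytes hardly divide, so that recombination with a sister chromatid has little scope in those cells. The high oxidative metabolism of the heart makes oxidised bases a steady load.

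Values are log2 probe set intensities, so a difference of 1 is a doubling, and levels of different genes cannot be ranked because probes differ in brightness. Array medians lay between 5.23 and 5.36 in SD, between 5.27 and 5.39 in SS and between 5.30 and 5.34 at baseline, and 5 arrays (3 SD and 2 SS) correlated less well with the rest than the others did. The tissue label was borne out by the 9 measured cardiomyocyte markers, whose mean lay between 12.7 and 12.8 in SD and between 12.6 and 12.8 in SS, with 0 of 9 passing the state test. In whole tissue, fewer cells of a type and less RNA per cell cannot be told apart.

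Over the 4 times together, 9 of the 49 repair genes were lower in SD than in SS and 0 were higher at a false discovery rate of 1% over all probe sets (limma, 34 SD and 36 SS animals). The background among all 18820 named genes was 6.45% lower and 5.08% higher, against 18.4% and 0% of the repair genes. The members called lower were Ogg1, Mutyh, Parp2, Pms1, Brca2, Rad50, Lig4, Fancm and Polh, and they came from 7 of the 9 pathways. Their differences were small, between 1.07-fold and 1.12-fold. The median difference of the 49 genes was -0.041 on the log2 scale, against -0.0029 for all named genes. Below 0 lay 36 of the 49 (73.5%), against 52.1% of all named genes. At an unadjusted p under 0.05, 21 members were lower and 2 were higher. Of the 18820 named genes, 2975 were lower and 2450 higher at that p. The share called depends on how bright a probe set is. Among named genes at or above the median signal 10.4% were lower, against 16.7% (6 of 36) of the repair genes in that class, and below the median signal 2.47% were lower, against 3 of 13 repair genes. The study itself drew attention to DNA repair from these same hearts, and the genes were chosen with that known. Neither the direction of these counts nor their excess over the background is independent evidence.

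**Figure D1:**
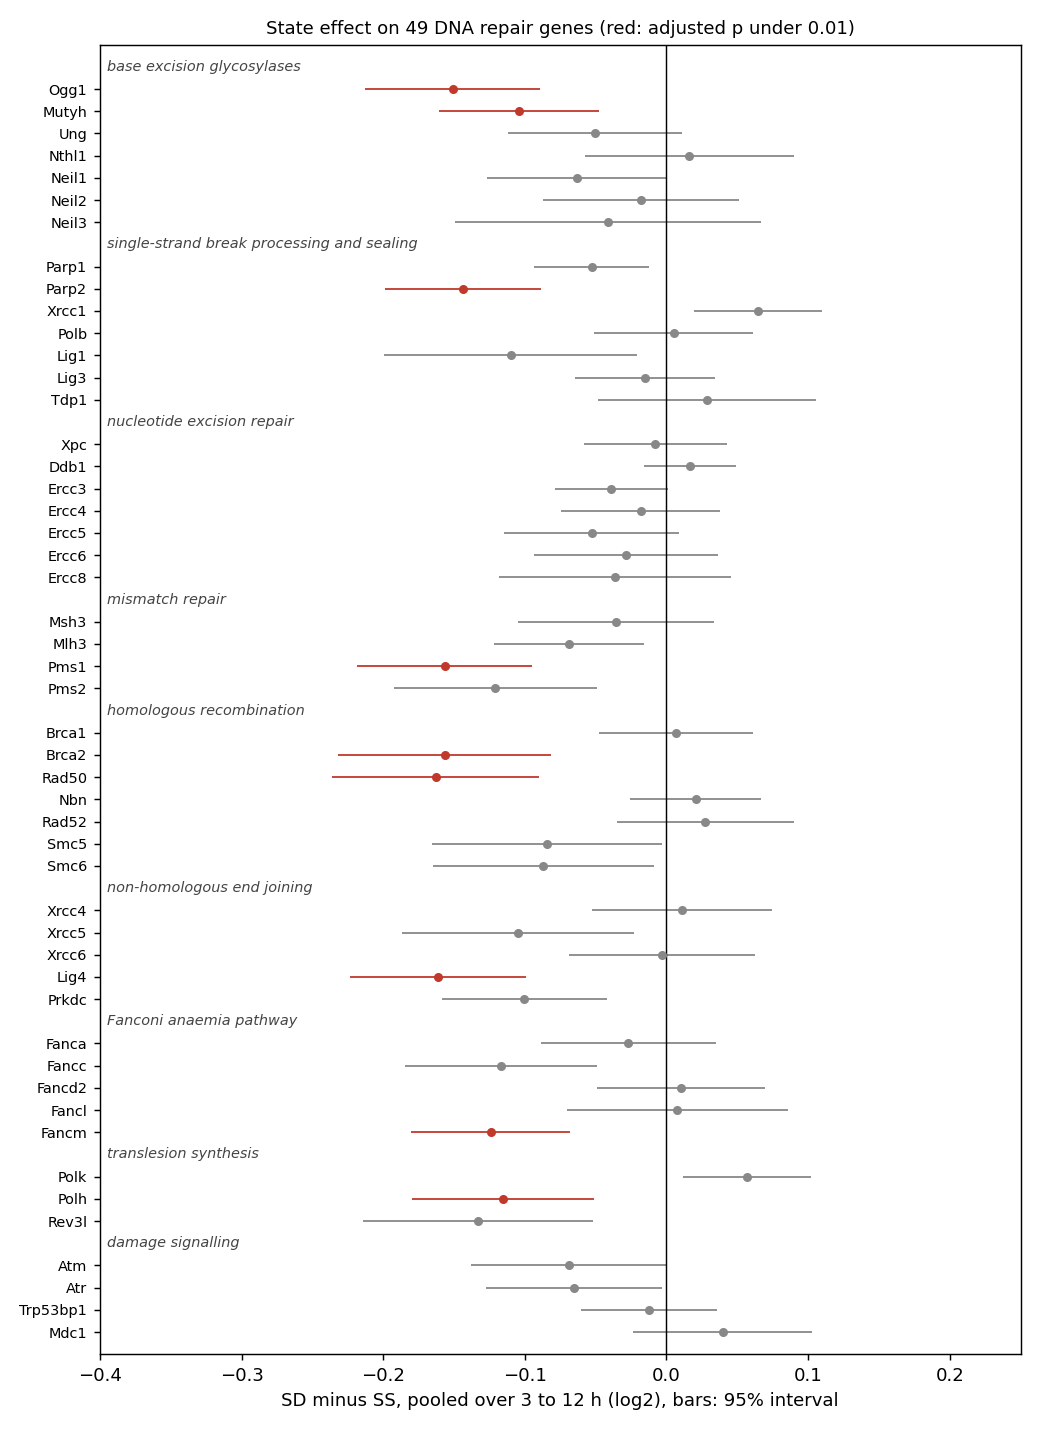
Log2 difference SD minus SS for each of the 49 DNA repair genes, pooled over 3 to 12 h, grouped by pathway (points, with 95% intervals as bars; red points passed an adjusted p of 0.01). All 9 red points lie to the left of 0, between -0.16 and -0.10, and Xrcc1 and Polk lie farthest to the right.

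The count of 9 depended on which times were included. Without the 6 h animals 4 members passed (Parp2, Pms1, Rad50 and Lig4), and without the 9 h animals 5 passed (Ogg1, Mutyh, Parp2, Pms1 and Lig4). With each array centred on its own median, 7 members were lower and 1 was higher, the bypass polymerase Polk (0.08, adjusted p = 0.0049 by limma). The median of the members was then -0.018, against 0.02 for all named genes. Below 0 lay 30 of the 49 members and 6914 of the 18820 named genes. Parp2, Pms1 and Lig4 passed under every alternative tried for the pooled effect.

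**Figure D2:**
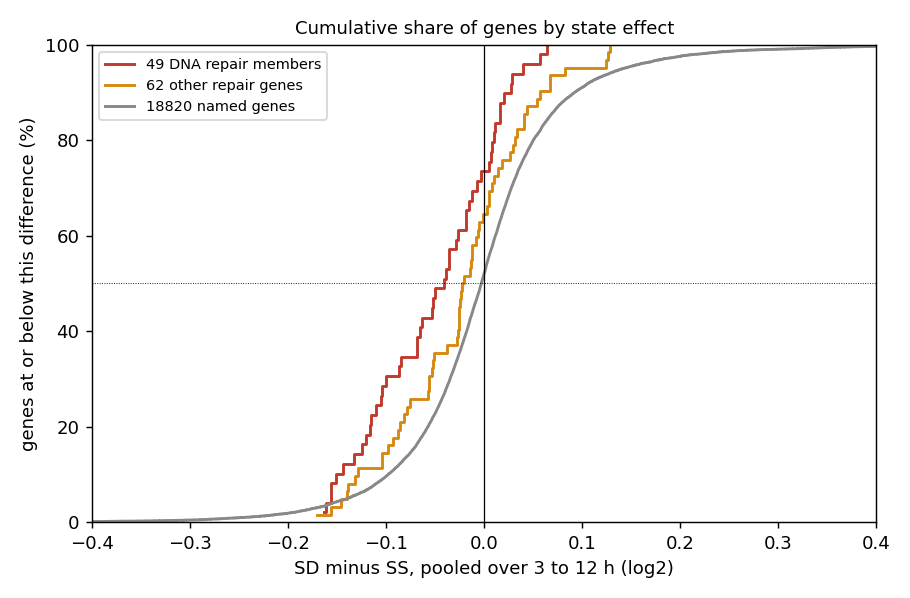
Cumulative share of genes (percent, vertical axis) at or below each pooled log2 difference SD minus SS (horizontal axis) for the 49 DNA repair genes, the 62 other repair genes and all 18820 named genes. The repair gene curve crosses 50% at -0.041 and the curve of all named genes at -0.0029, while the named genes reach farther out at both ends.

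Promoter sequence is shown for 4 of the members that were lower, 1 from each of 4 pathways and chosen after their values were seen, so that the start regions of genes moving in the same direction can be set side by side. Each line gives the 250 bases before the RefSeq transcription start, 5′ to 3′ on the gene's own strand, in mouse build GRCm38.p6. Capitals mark the letters CCAAT or the reverse complement of them, the E-box CACGTG and the cyclic AMP response element TGACGTCA. The Ogg1 sequence is chr6:113326726-113326975 on the plus strand, Parp2 is chr14:50807666-50807915 on the plus strand, Pms1 is chr1:53297029-53297278 on the minus strand and Brca2 is chr5:150522371-150522620 on the plus strand.
Ogg1: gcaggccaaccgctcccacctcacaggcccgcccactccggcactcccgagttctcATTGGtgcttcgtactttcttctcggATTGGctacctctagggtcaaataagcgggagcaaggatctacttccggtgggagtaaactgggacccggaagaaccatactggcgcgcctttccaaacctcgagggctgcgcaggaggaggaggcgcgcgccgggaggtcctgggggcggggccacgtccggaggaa
Parp2: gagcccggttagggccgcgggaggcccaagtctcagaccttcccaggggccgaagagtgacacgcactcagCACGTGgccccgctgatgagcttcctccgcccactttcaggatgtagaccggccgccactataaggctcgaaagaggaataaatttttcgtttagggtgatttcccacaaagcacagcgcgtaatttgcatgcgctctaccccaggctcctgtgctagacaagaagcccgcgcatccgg
Pms1: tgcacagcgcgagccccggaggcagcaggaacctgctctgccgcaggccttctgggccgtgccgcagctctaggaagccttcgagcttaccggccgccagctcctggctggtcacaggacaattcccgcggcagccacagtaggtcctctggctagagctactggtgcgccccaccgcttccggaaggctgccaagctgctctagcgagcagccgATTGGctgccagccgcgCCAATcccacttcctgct
Brca2: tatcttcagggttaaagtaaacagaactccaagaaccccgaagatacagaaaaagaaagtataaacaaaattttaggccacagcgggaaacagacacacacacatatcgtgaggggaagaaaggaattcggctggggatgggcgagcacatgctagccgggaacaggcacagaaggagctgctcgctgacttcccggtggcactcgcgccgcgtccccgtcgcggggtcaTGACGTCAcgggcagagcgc
Ogg1 and Pms1 each held the CCAAT letters at 2 positions, Parp2 held 1 E-box and Brca2 held 1 response element just before its start. The letters were also searched in every promoter of the table, which covered 40 of the 49 repair genes and 27025 genes in all, with both strands counted. CCAAT was found in 42.5% of the repair genes and 37.5% of all genes, CACGTG in 15% and 6.86%, the E2F letters TTTNGCGC in 7.5% and 1.31%, TGACGTCA in 2.5% and 1.77%, the D-box TTATGTAA in 0% and 0.977%, and the ROR core TAGGTCA in 5% and 2.55%. Among the 8 lower members in the table, CCAAT was found in 4, CACGTG in 1 (Parp2), TGACGTCA in 1 (Brca2) and the other letters in 0. Lig4 and Polh, which were also lower, held none of the 6 motifs. The 6 motifs were not tested, and the repair promoters were also richer in G and C (median 58.6% against 52.8%) and in CG pairs (median 18 against 6).

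Base excision repair starts with the glycosylases, of which 2 of 7 were lower in SD. Ogg1 (probe set 10540639), which removes 8-oxoguanine, had a lowest, median and highest value of 6.07, 6.27 and 6.81 in SD, against 6.21, 6.48 and 6.64 in SS. The median SD heart lay close to the lower end of the SS range, though the groups overlapped. The difference was -0.15 ± 0.031 (SE, adjusted p = 0.000192, limma), with 30 of 34 SD animals below the SS mean of their own time. It was largest at 6 h, when SD hearts ran 6.07, 6.24 and 6.45, against 6.46, 6.48 and 6.62 in SS (difference -0.27 ± 0.059, adjusted p = 0.00129). At that time every SD animal lay below every SS animal. Without the 6 h animals the pooled adjusted p for Ogg1 was 0.053.

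Mutyh (probe set 10507362) removes adenine mispaired with 8-oxoguanine, and so acts on the same lesion as Ogg1 after replication. Its values were 4.97, 5.19 and 5.47 in SD, against 5.003, 5.29 and 5.57 in SS, and the ranges were nearly the same. The difference was -0.10 ± 0.028 (adjusted p = 0.00642). It was below 0 at 3, 6 and 12 h (-0.19, -0.18 and -0.12) and above 0 at 9 h (0.06), and the interaction of state with time had an adjusted p of 0.116. The call was lost with arrays centred (adjusted p = 0.041), after repeated quantile normalisation (0.042), without the 3, 6 or 12 h animals (0.104, 0.150 and 0.049) and without the 5 arrays that stood apart (0.012). The remaining glycosylases did not pass: Ung, for uracil, differed by -0.05, and Nthl1, Neil1, Neil2 and Neil3, for oxidised pyrimidines, by 0.02, -0.06, -0.02 and -0.04.

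In single-strand break processing and sealing, 1 of 7 genes was lower. Parp2 (probe set 10414497), a poly(ADP-ribose) polymerase that marks breaks, had 6.85, 7.19 and 7.36 in SD, against 7.08, 7.30 and 7.57 in SS. The SD values reached lower and the SS values higher, with a wide shared middle. The difference was -0.14 ± 0.028 (adjusted p = 7.41e-05, limma). At 6 h the 9 SD hearts (7.01, 7.13 and 7.20) all lay below the 9 SS hearts (7.20, 7.28 and 7.36), yet it was the 9 h difference that passed (-0.22 ± 0.050, adjusted p = 0.00148, against an adjusted p of 0.0306 at 6 h). Fitted on the 9 h arrays alone, the adjusted p at 9 h was 0.068, and on the 6 h arrays alone it was 0.0084 at 6 h.

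Parp1, the more active relative of Parp2, differed by -0.05 (adjusted p = 0.074). Xrcc1, the scaffold that gathers the break repair enzymes, had the highest difference of all 49 members, with 6.72, 6.92 and 7.29 in SD, against 6.69, 6.86 and 7.01 in SS. It was 0.06 ± 0.023 higher, which did not pass (adjusted p = 0.045). Polb, the gap-filling polymerase, had the brightest probe set of the pathway, with 7.59, 7.89 and 8.21 in SD against 7.70, 7.91 and 8.16 in SS, and differed by 0.01. The ligases Lig1 and Lig3 differed by -0.11 and -0.02, and Tdp1, which frees topoisomerase trapped on DNA, by 0.03.

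None of the 7 nucleotide excision repair genes passed in either direction over the pooled times, where 0 of 7 also reached an unadjusted p under 0.05. Their differences ran between -0.05 for Ercc5 and 0.02 for Ddb1. The 95% intervals reached no lower than -0.12 (Ercc8) and no higher than 0.05 (Ddb1). Ddb1, part of the complex that senses ultraviolet damage, had 9.94, 10.06 and 10.22 in SD, against 9.89, 10.04 and 10.14 in SS. The lesion sensor Xpc differed by -0.01, the TFIIH helicase Ercc3 by -0.04, the nucleases Ercc4 and Ercc5 by -0.02 and -0.05, and the transcription-coupled factors Ercc6 and Ercc8 by -0.03 and -0.04.

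All 4 mismatch repair genes lay below 0 and 1 passed. Pms1 (probe set 10354542), a mismatch repair protein of the MutL family, had 5.80, 6.10 and 6.36 in SD, against 6.01, 6.21 and 6.64 in SS. The SD median lay near the lower end of the SS range, and the ranges overlapped. The difference was -0.16 ± 0.031 (adjusted p = 0.000117), and 29 of 34 SD animals were below the SS mean of their time. Pms2, an endonuclease of the same family, had 5.83, 6.34 and 6.55 in SD against 6.11, 6.42 and 6.77 in SS and missed the threshold (-0.12 ± 0.036, adjusted p = 0.014). Mlh3, a family member with a role in meiosis, had the brightest probe set of the group, with 7.07, 7.38 and 7.57 in SD against 7.16, 7.46 and 7.67 in SS, and differed by -0.07. Msh3, which recognises loops of unpaired bases, differed by -0.04.

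Homologous recombination had 2 of 7 genes lower. Brca2 (probe set 10527801), a tumour suppressor that acts in recombination, had 4.14, 4.87 and 5.12 in SD, against 4.67, 4.9998 and 5.26 in SS. A single SD animal at 3 h made the lowest value, and the other SD hearts overlapped with the SS range. The difference was -0.16 ± 0.038 (adjusted p = 0.00168), and it did not pass without the 6 h animals (0.054) or the 9 h animals (0.021). The probe set is dim.

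Rad50 (probe set 10385842), a subunit of the complex that tethers and trims broken ends, had 6.45, 6.93 and 7.19 in SD, against 6.68, 7.10 and 7.40 in SS. Its difference of -0.16 ± 0.037 was the largest among the 49 members (adjusted p = 0.000755), and 31 of 34 SD animals were below the SS mean of their time. It did not pass without the 9 h animals (0.012) or the 12 h animals (0.017). Nbn, the regulatory subunit of the same complex, differed by 0.02 with an adjusted p of 0.660. Smc5 and Smc6, the core of a ring complex that holds damaged chromatids, differed by -0.08 and -0.09, Brca1 by 0.01 and the annealing protein Rad52 by 0.03, and none of these passed. Smc6 had the brightest probe set of the pathway, with 7.26, 8.18 and 8.38 in SD against 8.01, 8.22 and 8.48 in SS.

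In non-homologous end joining 1 of 5 genes was lower. Lig4 (probe set 10576946), the ligase that seals the rejoined ends, had 6.73, 7.12 and 7.38 in SD, against 6.98, 7.30 and 7.58 in SS. The SD median lay well down in the SS range, and the groups overlapped. The difference was -0.16 ± 0.031 (adjusted p = 7.98e-05), with 31 of 34 SD animals below the SS mean of their time. Its binding partner Xrcc4 differed by 0.01. The Ku subunits Xrcc5 and Xrcc6, which bind broken ends first, differed by -0.10 and -0.0030, and Prkdc, the kinase they recruit, by -0.10 (adjusted p = 0.011). Prkdc had 6.31, 6.75 and 6.92 in SD, against 6.42, 6.85 and 7.06 in SS. Xrcc5 had the brightest probe set of the pathway, with 7.41, 7.89 and 8.12 in SD against 7.66, 7.97 and 8.41 in SS.

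The Fanconi anaemia pathway, which unhooks crosslinked strands, had 1 of 5 genes lower. Fancm (probe set 10396030), the translocase that brings the pathway to DNA, had 4.54, 4.88 and 5.13 in SD, against 4.83, 4.99 and 5.26 in SS. Both ranges were narrow and shifted by less than their width. The difference was -0.12 ± 0.028 (adjusted p = 0.000815), and it did not pass without the 6 h animals (0.016) or the 9 h animals (0.018). Fancc, of the core complex, had 4.62, 5.09 and 5.30 in SD against 4.81, 5.23 and 5.39 in SS and just missed (-0.12 ± 0.034, adjusted p = 0.012). Fanca, of the same complex, differed by -0.03. Fancl, the ubiquitin ligase of the pathway, had 6.60, 7.05 and 7.35 in SD against 6.54, 7.04 and 7.42 in SS and differed by 0.01, as did the Fancl substrate Fancd2.

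Of the 3 translesion polymerase genes, 1 was lower. Polh (probe set 10451225), which copies past ultraviolet dimers, had 6.07, 6.48 and 6.67 in SD, against 6.22, 6.57 and 6.75 in SS (difference -0.12 ± 0.032, adjusted p = 0.00801). At 12 h SD hearts ran 6.07, 6.28 and 6.37, against 6.30, 6.55 and 6.62 in SS, and 5 of the 8 SD animals lay below all SS animals. That difference passed (-0.23 ± 0.054, adjusted p = 0.00315), but not with arrays centred (0.012), on the 12 h arrays alone (0.020) or without the 5 arrays that stood apart (0.020). The pooled call was lost with arrays centred (0.049), after repeated quantile normalisation (0.034), and without the 6, 9 or 12 h animals (0.023, 0.031 and 0.133). Rev3l, the catalytic subunit of polymerase zeta and the brightest of the 3, had 6.45, 7.42 and 7.63 in SD against 7.28, 7.54 and 7.86 in SS, and missed the threshold (-0.13 ± 0.041, adjusted p = 0.018). Polk, a bypass polymerase for bulky adducts, was the only one above 0, with 6.49, 6.86 and 7.04 in SD against 6.55, 6.80 and 6.94 in SS and 30 of 34 SD animals above the SS mean of their time (0.06 ± 0.023, adjusted p = 0.088).

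None of the 4 damage signalling genes passed. The kinases Atm and Atr, which start the response to breaks and to stalled forks, differed by -0.07 each, with 95% intervals of -0.14 to -0.00025 and -0.13 to -0.0032, at unadjusted p values of 0.049 and 0.040. Atr, with the brightest probe set of the group, had 6.28, 6.88 and 7.08 in SD, against 6.63, 6.94 and 7.12 in SS. The break-site adaptors Trp53bp1 and Mdc1 differed by -0.01 and 0.04.

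**Figure D3:**
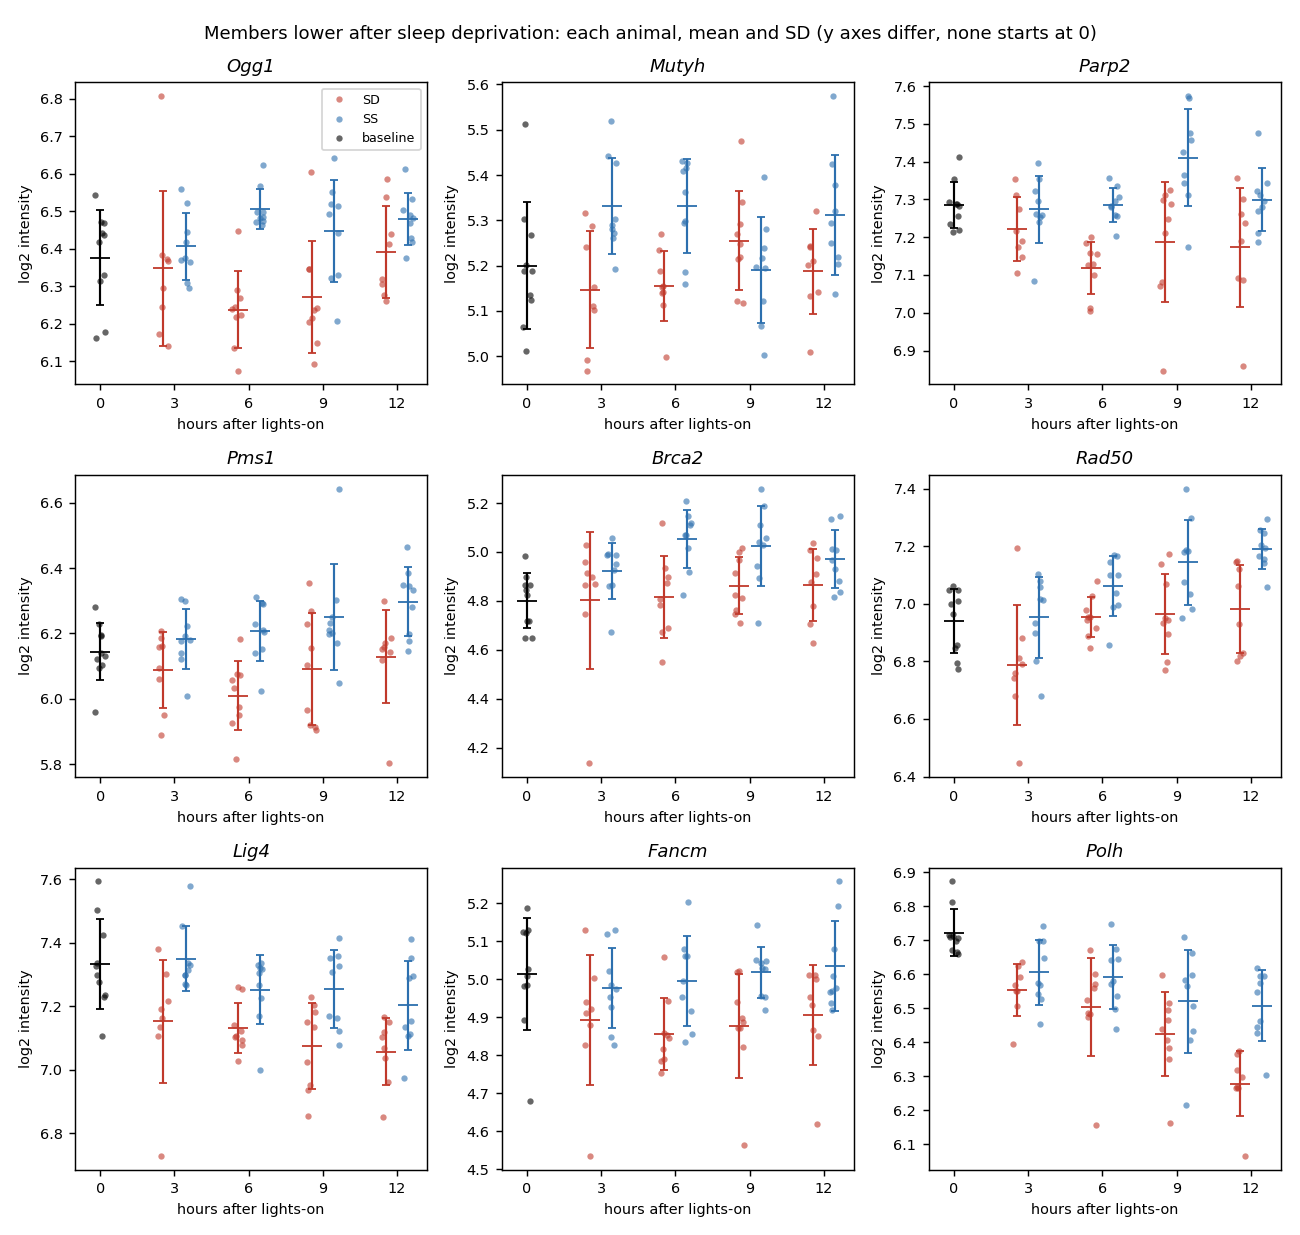
Log2 intensity of the 9 members that were lower in SD, for each animal (small points) with the group mean and SD as bars, against hours after lights-on, for SD (red), SS (blue) and baseline (black, 0 h). The SD means lie below the SS means at every time except for Mutyh at 9 h, the animals overlap in most panels, and for Ogg1 and Parp2 at 6 h they do not.

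Taken 1 time at a time, few members passed. At 3 h, 0 of 49 were lower and 0 higher, against a background of 1.02% and 1.22%. At an unadjusted p under 0.05, 6 were lower and 3 higher, against 1363 and 2276 of the 18820 named genes. At 6 h 1 was lower (Ogg1) and 0 higher (2.32% and 1.55%), at 9 h 1 was lower (Parp2) and 0 higher (2.14% and 2.49%), and at 12 h 1 was lower (Polh) and 0 higher (2.1% and 2.1%). These shares were near the background. With arrays centred, the 12 h count was 0 lower and 1 higher, Xrcc1 (0.19, adjusted p = 0.0062). The median difference of the members was -0.029, -0.046, -0.052 and -0.072 at 3, 6, 9 and 12 h, against 0.024, -0.014, -0.026 and 0.001 for all named genes. At 12 h, where Polh passed, 3 of 8 lymphocyte markers (Cd3e, Cd3g and Cd79a) were also lower in SD, all 8 lay below 0 with a median of -0.70, and 6 of 7 adipocyte markers lay below 0 with a median of -1.12 and 0 passing. Their part in the 12 h values was not tested. A total of 20 members were below 0 at all 4 times and 2 were above 0 at all 4. The matching share of all named genes is not given here. Taken singly, 39.3%, 56.4%, 59.2% and 49.6% of named genes lay below 0 at 3, 6, 9 and 12 h. The ranges of SD and SS did not overlap for 2 members at 6 h, Ogg1 and Parp2, and for 0 members at 3, 9 and 12 h, against 0.946% of named genes at 6 h and 0.627%, 0.871% and 1.13% at 3, 9 and 12 h. No member passed the test of state by time (background 0.531%), and 6 had an unadjusted p under 0.05, so a change of the difference with time was not established for any member.

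The other comparison was across the light phase. From baseline through 12 h of sleep (46 animals), 12 of the 49 genes rose along a fitted slope and 2 fell, which is 24.5% rising against a background of 9.36%, while the background of falling genes was 12.9%. Among named genes at or above the median signal 14.8% rose and 22.1% fell, against 30.6% and 5.56% of the repair genes in that class. Below the median signal 3.92% rose and 3.66% fell, against 7.69% and 0% of the repair genes. Of the 12 that rose, 4 were homologous recombination genes, Rad50, Rad52, Smc5 and Smc6, and 2 were end joining genes, Xrcc5 and Prkdc. The rest were Ercc5, Ercc6, Pms2, Fancc, Rev3l and Atm. The genes that fell were Tdp1 and Polh. Over the same animals 5 of 7 adipocyte and 2 of 8 lymphocyte markers also rose and 5 of 10 endothelial markers fell, and their part in the slopes was not tested.

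The steepest rise over sleep was that of Xrcc5, by 0.32 ± 0.055 (SE) over 12 h (adjusted p = 9.41e-06, limma). Its median was 7.85 at baseline and 7.85, 7.91, 8.16 and 8.13 after 3, 6, 9 and 12 h of sleep, so that most of the step came between 6 and 9 h. Atm rose by 0.30 ± 0.048, with medians of 6.55 at baseline and 6.71, 6.83, 6.89 and 6.83 after 3, 6, 9 and 12 h. Its step came early, between baseline and 6 h. Smc5 rose by 0.28 ± 0.043 and Smc6 by 0.25 ± 0.044, and Rad50 by 0.27 ± 0.048. The medians of Rad50 were 6.98 at baseline and 7.01, 7.10, 7.18 and 7.19 after 3, 6, 9 and 12 h of sleep, which climbed at each time. The smaller rises were 0.25 for Fancc, 0.24 each for Pms2 and Rev3l, 0.23 for Ercc5, 0.19 for Prkdc and 0.16 for Ercc6.

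Over deprivation (44 animals), 3 members rose and 4 fell, against a background of 5.36% rising and 9.04% falling. The genes that rose were Rad52, Atm and Prkdc, all of which also rose over sleep, and the genes that fell were Tdp1, Polh, Lig4 and Ercc8. The 2 trends share the 10 baseline animals. Rad52 rose by 0.30 ± 0.040 over deprivation and by 0.28 ± 0.038 over sleep, with medians of 7.41 at baseline, 7.74 after 12 h of SD and 7.68 after 12 h of SS. The SD and SS animals changed side by side in this gene. Tdp1 fell by 0.31 ± 0.057 over deprivation and by 0.33 ± 0.047 over sleep, again in parallel, with medians of 7.45 at baseline, 7.17 after 12 h of SD and 7.16 after 12 h of SS. Polh fell by 0.41 ± 0.046 over deprivation and by 0.21 ± 0.044 over sleep. Every one of the 10 baseline hearts (6.66 to 6.87) lay above every 12 h heart of either state. Lig4 fell by 0.26 ± 0.059 over deprivation, and Ercc8, of transcription-coupled repair, by 0.31 ± 0.068.

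**Figure D4:**
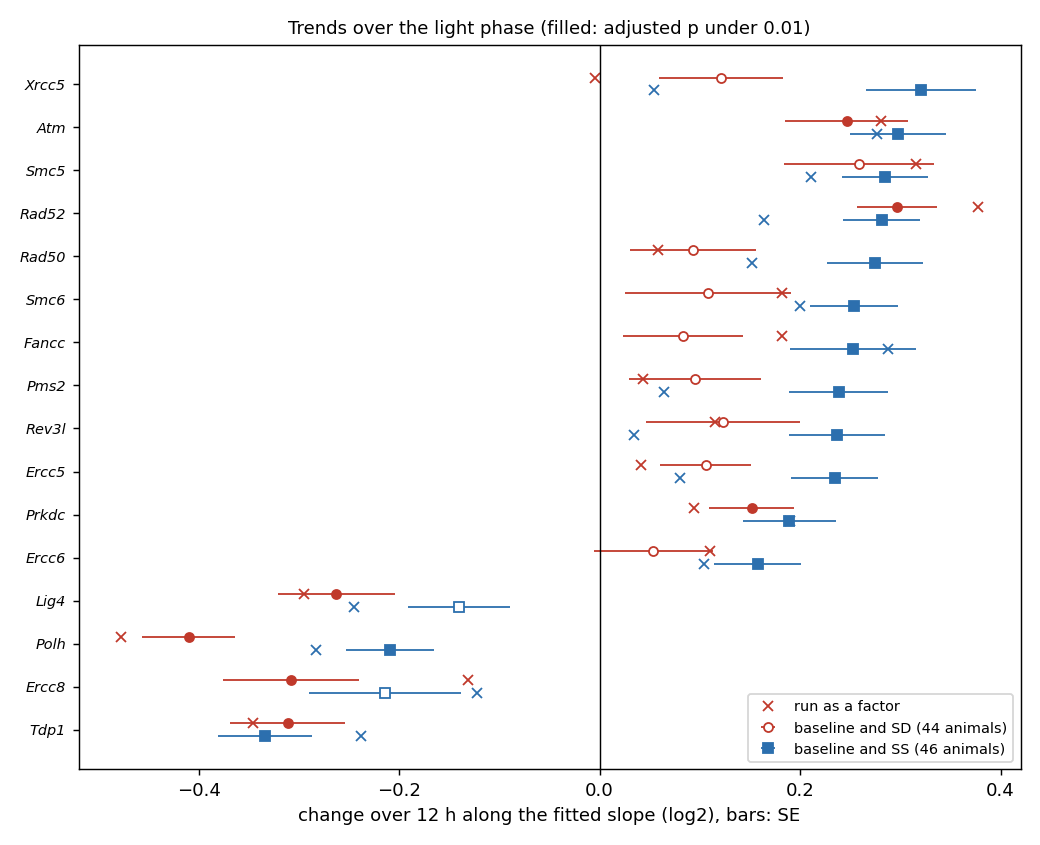
Change over 12 h along the fitted slope (log2, with SE as bars) for the 16 members that passed in either trend, over baseline and SD (red circles) and over baseline and SS (blue squares); filled symbols passed an adjusted p of 0.01 and crosses give the slope with run as a factor. The 2 trends have the same sign in all 16 genes, and most crosses over sleep lie nearer to 0 than the squares.

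The trends are tied to the way the samples were numbered. The titles number the arrays in 1 unbroken sequence, and no label names a batch. The sequence was cut here into 4 runs by the repeating order of the groups, and other cuts are possible. Of these runs, 2 hold all 9 and 12 h animals and 2 hold the 3 and 6 h animals, with all baseline animals in 1 of them. With run as a factor, a choice made after seeing the data, 0 members rose and 0 fell over sleep, against 192 rising and 214 falling of the 18820 named genes, and 1 rose (Rad52, adjusted p = 0.00437) and 1 fell (Polh, adjusted p = 0.00188) over deprivation. Over sleep the slope of Xrcc5 was then 0.05 over 12 h, of Rev3l 0.03 and of Pms2 0.06, while that of Atm was 0.28 and of Fancc 0.29, so some slopes shrank and others did not. Time of day and run cannot be told apart for steps between 6 and 9 h. The difference between SD and SS lies within the runs as cut here. In each run the SD numbers come before the SS numbers, so state and order of numbering cannot be told apart there. In the 4 runs all 9 members called lower were below 0, between -0.23 and -0.04, -0.23 and -0.0043, -0.22 and -0.03, and -0.33 and -0.12, and the median over the 49 genes was -0.068, -0.054, -0.020 and -0.046. Those 9 members were called on these same animals. Their signs within the runs partly follow from that choice and are no independent evidence. With run as a factor 13 members were lower and 0 higher in the pooled comparison. The share of all named genes called under that model is not given here, so the 13 cannot be set against a background.

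In a 2-step definition modelled on that of the study, a sleep-enhanced gene is lower in SD and also rises over undisturbed sleep. Here the second step was a limma slope over the baseline and SS animals, whereas the study fitted both states from a common intercept and took its p values from permutations. Of the 49 members, 3 met it, Pms1, Brca2 and Rad50 (background 1.81%), and 0 were sleep-repressed (background 1.62%). The second step gave adjusted p values of 0.00479 for Pms1, 0.00627 for Brca2 and 5.73e-06 for Rad50, adjusted over the probe sets that passed the first step. Adjusted over all probe sets 1 member met it, Rad50, and with arrays centred 1 member did. Another 11 members rose over sleep without passing the state test. Ogg1 did not meet the definition (slope 0.10 over 12 h, second-step adjusted p = 0.048), and Parp2, Fancm and Mutyh had slopes of 0.07, 0.03 and 0.04. With a common intercept for both states in the second step, an alternative added after seeing the data, the same 3 members met it, and Ogg1 lay at the threshold (slope 0.14 over 12 h, adjusted p = 0.01006). All of these second steps rest on the slope over sleep, which is tied to the runs of sample numbers. With run as a factor 0 members rose over sleep in the test over all probe sets. The 2-step definition was not repeated that way.

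A wider list of 62 other repair genes gave 0 higher and 5 lower, which is 8.06% lower and near the 6.45% of all named genes, with a median of -0.021. Lower in SD than in SS were Rad51d (-0.17 ± 0.029), of recombination, and Rad18 (-0.16 ± 0.041), the ligase that calls in bypass polymerases. So were Uvssa (-0.14 ± 0.034), of transcription-coupled repair, Rad17 (-0.13 ± 0.030), the loader of a checkpoint clamp, and the helicase Blm (-0.10 ± 0.029). Of 17 target genes of the damage-responsive factor p53, 4 were higher and 1 was lower, which is 23.5% and 5.88% against 5.08% and 6.45% of all named genes. Cdkn1a, which arrests the cell cycle, was higher by 1.14 ± 0.11 and the death receptor Fas by 0.37 ± 0.057, Sesn1 and Btg2 were higher by 0.19 and 0.18, and Gadd45a, which takes part in repair and checkpoints, was lower by 0.31 ± 0.054 on the log2 scale in SD.

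Several repair genes are used most by dividing cells, and the heart holds other cell types than cardiomyocytes. Of 12 markers of dividing cells 0 passed and 9 lay above 0, with a mean level of 5.005 to 5.93 in SD and 4.93 to 5.58 in SS over the 4 times. By time, 11 lay above 0 at 3 h (median 0.31) and 11 below 0 at 9 h (median -0.059). Of 8 lymphocyte markers 0 passed and 7 lay below 0, with means of 4.19 to 5.75 in SD and 4.31 to 6.47 in SS. Of 7 adipocyte markers 0 passed and 6 lay above 0 over the 4 times. Among 10 endothelial markers 3 were higher, among 10 macrophage markers 2 were higher, and 1 of 8 fibroblast markers was lower. Of 7 neutrophil and 7 smooth muscle and pericyte markers 1 each was lower, and of 7 liver markers 1 was higher. None of 3 erythroid and 8 skeletal muscle markers passed. Some hearts stood out, with skeletal muscle means up to 7.04 in SD (median 4.39) and 4.86 in SS. Liver means ran from 5.77 to 8.57 in SD and from 5.62 to 8.57 in SS. Their part in the result was not tested.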

How the data were processed

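Hearts of 80 mice were measured on Affymetrix Mouse Gene 1.0 ST arrays, 1 animal per array. The deposited values are log2 intensities made by the authors with robust multi-array averaging (RMA, background correction, quantile normalisation and summary per probe set); the version is not given in the sources used here. The deposited numbers had lost their decimal point, so it was restored after 2 digits where a value started with 10 to 13 and after 1 digit otherwise, except for 1 value placed by the other values of that probe set. This log2 scale is compressed, so changes of dim probe sets are understated. Of 35556 probe sets, 21218 had 1 symbol, 1881 several and 12457 none.

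Models were fitted with limma 3.58.1 in R 4.3.3 on all probe sets, with Benjamini-Hochberg adjustment over all of them and a false discovery rate of 1%. They were the SD and SS difference over the 4 times (70 animals), at each time (9 group means, 80 arrays), its change with time, and the slope on hours over baseline with SS or with SD. Fits were tested on simulated data. The members and lists were chosen with earlier results of these data known. Members past the 1% threshold in any comparison, Ogg1, Brca2 and the member with the brightest probe set of each pathway are described with values. Arrays have no read depth, and precision is limited by the number of animals. Promoters came from RefSeq (GRCm38.p6). Alternatives changed the filter (40th percentile), scaling, shrinkage, weights, times and arrays included, and covariates.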

Additional observations from a re-analysis of the deposited data

Results flagged for a closer look

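In 33 of the 252 groups checked (28 repair genes with values in the report, 9 groups each) a single heart lay apart from the rest of its group, which is 13.1%, where chance gives about 1 in 20. The groups are not independent, since 1 array enters every gene. An SD animal at 3 h, whose array was among the 5 that stood apart, accounted for 9 of them. It was lowest for Rev3l (6.45), Smc6 (7.26), Smc5 (7.17), Brca2 (4.14), Atr (6.28), Lig4 (6.73) and Prkdc (6.31) and highest for Ogg1 (6.81) and Ddb1 (10.2). An SD animal at 12 h, also among those 5, was lowest for Atm (6.38), Xrcc5 (7.41), Pms1 (5.80), Ercc5 (7.19), Polh (6.07) and Fancm (4.62). Without the 5 arrays, 10 members were lower over the pooled times and 0 were higher.

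Other deprived hearts were lowest for Smc6 (7.69), Fancc (4.82) and Tdp1 (6.87) at 12 h, for Smc5 (7.68) and Fancm (4.56) at 9 h and for Polh (6.16) at 6 h, and highest for Ogg1 at 9 h (6.60) and Atr at 6 h (7.08). Sleeping hearts were lowest for Atm (6.60) and Prkdc (6.42) at 9 h, for Parp2 (7.08), Fancl (6.72) and Brca2 (4.67) at 3 h and for Lig4 (7.001) at 6 h, and highest for Pms1 at 9 h (6.64) and Rev3l at 12 h (7.86). A single 9 h heart gave both Atm and Prkdc, and a single 3 h heart gave both Parp2 and Fancl. Both of these, and the deprived 6 h heart flagged for Atr, were also among the 5 arrays that stood apart. A baseline heart was lowest for Smc6 (7.63) and Atr (6.60). No repair gene was flagged for a state difference that changed with time, where the limma test of the interaction passed for 0 of 49 and 6 had an unadjusted p under 0.05.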

How the results depend on the processing

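No repair gene that passed in a comparison changed direction there under the alternatives tried. With arrays centred, 30 of the 49 members lay below 0 for the pooled difference, against 36 without. Of the 18820 named genes, 6914 lay below 0 with centring, against 9803 without. Over the pooled times the 9 lower members became 4 without the 6 h animals and 5 without the 9 h animals, and the 0 higher became 1 with arrays centred and 1 at a false discovery rate of 5%. At 6 h the arrays of that time alone gave 2 lower, Ogg1 and Parp2. At 9 h they gave 0 lower. At 12 h the filter on low values gave 1 higher (Xrcc1) and 2 lower, centring gave 1 higher and 0 lower, and both the 12 h arrays alone and leaving out the 5 arrays that stood apart gave 0 lower. Over sleep the 2 falling members became 6 with centring and 4 with a test of any difference among the times, and with run as a factor 0 rose and 0 fell. Over deprivation the 3 rising became 1 with any difference among the times, 5 with a common intercept, and 1 rising and 1 falling with 3 to 12 h only or with run as a factor. Sleep-enhanced members numbered 1 with adjustment over all probe sets, 1 with centring and 7 when time of day was a factor. The cause was not tested for any of these. No paired analysis was possible because the labels carry no replicate numbers shared between groups. Dim probe sets sit near the background of the array, which limits what can be seen for Fancd2, Neil2, Neil3 and Brca1.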

Other observations

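Of the 62 other repair genes, 9 rose and 7 fell over sleep along the slope from baseline to 12 h, and 46 did not pass (limma, false discovery rate of 1%). This is 14.5% rising and 11.3% falling, against 9.36% and 12.9% of all named genes, and 32 slopes lay above 0 and 30 below. The nuclease Apex2 rose by 0.60, the checkpoint scaffold Topbp1 by 0.33, the replicative polymerase Pole by 0.32 and the helicase Wrn by 0.21, while the polymerase Polq fell by 0.29 and the nuclease Mus81 by 0.26. Of the 17 p53 targets 4 rose and 3 fell over sleep, and 12 slopes lay below 0. Trp53inp1, an inducer of p53-dependent death, rose by 0.83, Fas by 0.64, and Sesn1 and Gadd45a by 0.52 each over sleep, whereas Cdkn1a fell by 1.003, Aen by 0.26 and Zmat3 by 0.19. Fas and Sesn1 were thus higher in SD than in SS at matched times and also rose over sleep. These slopes are tied to the runs of sample numbers in the same way as those of the 49 genes.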
